A study of Mus musculus with 12 samples.

Results

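*Hilpda*, *Plin2* and other genes of the lipid droplet were followed in mouse CD8+ T cells that carried a control siRNA or an siRNA against *Creb1* and were cultured with or without trans-vaccenic acid (TVA), a trans-fatty acid of ruminant fat. The set holds 10 of the 54532 genes listed for each library. *Hilpda*, *Plin2* and *Plin3* belong to the droplet coat, *Pnpla2*, *Abhd5*, *Lipe* and *Mgll* to lipolysis, *Dgat1* and *Dgat2* to triglyceride synthesis, and *Pdk4* is a target gene of the PPAR receptors. These genes were chosen by their roles and selected on their FPKM (fragments per kilobase of gene, scaled to the reads of the library) with the values of the same 12 libraries in view. Their levels and differences are therefore a description, and no p-value is given for any of them. A mean of at least 1 FPKM over the 12 libraries was required for the fits across genes, and 7 of the 10 were among the 11550 genes that met it, whereas *Dgat2*, *Mgll* and *Pdk4* were not.

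Lipid droplets store fatty acids as triglycerides and sterol esters under a single layer of phospholipid that is coated by perilipins and other proteins. Storage ends with the DGAT enzymes, and release begins with the triglyceride lipase ATGL, the product of *Pnpla2*, which ABHD5 activates and HILPDA and G0S2 inhibit. *Hilpda* and *Plin2* are known to be induced by fatty acids through PPAR receptors, and *Hilpda* also by hypoxia through HIF-1.

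Bead-purified primary CD8+ T cells were used after activation in culture. Their sources were C57BL/6 spleens and peripheral lymph nodes. Accell reagents carried siNTC, a non-targeting control siRNA, or si*Creb1*, which targets *Creb1*, and the cells then received DMSO or 20 μM TVA for 24 h. The groups were siNTC, siNTC + TVA, si*Creb1* and si*Creb1* + TVA, each with 3 libraries, and all cells were wild type. CREB1 is a transcription factor that acts downstream of cAMP, and the design asks which TVA responses depend on it. Neither the labels nor the methods say whether the libraries of a group came from separate mice or cultures, so p-values measure only the spread between these libraries, which may be technical. Between 16660234 and 24602484 reads per library were recovered from the FPKM values.

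*Creb1* itself, the knockdown target, stood at 10.98, 10.28 and 10.49 FPKM in the siNTC libraries and at 11.03, 11.97 and 12.42 FPKM with TVA. It stood at 1.19, 1.29 and 1.77 FPKM in the si*Creb1* libraries and at 1.81, 1.67 and 1.17 FPKM with TVA. All 6 si*Creb1* libraries lay below all 6 siNTC libraries, and the knockdown left *Creb1* transcripts in every library. On the log2(FPKM + 1) scale, the log2 fold change was −2.27 (SE 0.11, Benjamini-Hochberg adjusted p = 2.21e-06 from limma) without TVA and −2.34 (adjusted p = 2.45e-06 from limma) with TVA. The added 1 FPKM makes these values smaller in size than the fall in FPKM itself.

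The CD8 T cell label was checked against markers. All 10 T cell markers were tested, and *Cd8b1*, the most abundant of them, averaged 887 FPKM. *Cd4*, *Foxp3*, *Il4*, *Cd40lg* and *Csf1r* are given after their values were seen. *Cd4* averaged between 1.08 and 1.59 FPKM in the 4 groups. Of the other CD4 T cell markers, *Foxp3* lay between 1.87 and 2.99 FPKM and *Ctla4* averaged 41.6 FPKM. *Il4* and *Cd40lg* reached at most 0.553 and 1.49 FPKM. The B cell marker *Ighm* averaged 313 FPKM and the macrophage marker *Lyz2* 6.19 FPKM, so the check does not show that the cells were pure. The 7 adipocyte markers, of interest because droplets are most prominent in fat cells, summed to at most 0.497 FPKM in any library, and *Lep* was listed at 0 in all 12. In bulk RNA of this kind, fewer cells that express a gene and less RNA per cell cannot be told apart.

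*Hilpda* (ENSMUSG00000043421, chromosome 6 of GRCm38, 29272488 to 29275446, plus strand) encodes the small droplet protein that inhibits ATGL. Its level was 7.81, 8.29 and 8.26 FPKM in the siNTC libraries and 11.4, 13.6 and 12.9 FPKM in the siNTC + TVA libraries. In si*Creb1* cells it was 7.76, 7.38 and 7.51 FPKM, and in si*Creb1* + TVA cells 10.9, 10.8 and 10.8 FPKM. All 6 TVA libraries were above all 6 libraries without TVA. The values rest on 159 to 299 reads per library.

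With TVA the mean *Hilpda* level was 8.12 ± 0.269 against 12.6 ± 1.12 FPKM (SD, n = 3) in siNTC cells, which is 55.3% higher. It was 7.55 ± 0.193 against 10.8 ± 0.083 FPKM (SD, n = 3) in si*Creb1* cells, which is 43.5% higher. On the log2(FPKM + 1) scale used for all fits, which understates the change of low genes, the TVA difference was 0.57 (SE 0.05) in siNTC cells and 0.47 (SE 0.05) in si*Creb1* cells. These 2 comparisons share no library. TVA libraries were thus higher in *Hilpda* with and without the knockdown.

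Between the siRNAs, the 3 si*Creb1* libraries lay just below the 3 siNTC libraries without TVA, with a log2 difference of −0.09 (SE 0.05). With TVA the si*Creb1* libraries again lay below the siNTC libraries, with a log2 difference of −0.20 (SE 0.05). Subtracting the TVA difference of siNTC cells from that of si*Creb1* cells gave −0.11 (SE 0.08) for *Hilpda*. This value moved both ways with the siNTC + TVA library left out. It was −0.17 without replicate 1, the lowest of that group, and smaller in size than −0.11 without replicate 2, the highest.

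*Plin2* (ENSMUSG00000028494, chromosome 4, 86648386 to 86670060, minus strand) encodes perilipin 2, the main droplet coat protein of cells other than adipocytes. Its level was 1.45, 1.41 and 1.32 FPKM in siNTC libraries and 1.83, 2.02 and 1.96 FPKM with TVA. In si*Creb1* libraries it was 1.31, 1.45 and 0.979 FPKM, and 2.17, 1.88 and 1.92 FPKM with TVA. As for *Hilpda*, every TVA library was above every library without TVA, on 76 to 183 reads per library.

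The *Plin2* means were 1.39 ± 0.0693 against 1.94 ± 0.0949 FPKM (SD, n = 3) in siNTC cells and 1.25 ± 0.243 against 1.99 ± 0.159 FPKM (SD, n = 3) in si*Creb1* cells. The log2 difference with TVA was 0.30 (SE 0.09) in siNTC cells and 0.42 (SE 0.09) in si*Creb1* cells. With limma-voom on the recovered reads, which adds no constant of 1 FPKM, the same differences were 0.47 and 0.69. Between the siRNAs the *Plin2* groups overlapped, with log2 differences of −0.10 (SE 0.09) without TVA and 0.02 (SE 0.09) with TVA. The same subtraction for *Plin2* gave 0.12 (SE 0.12).

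*Plin3*, the ubiquitous perilipin that moves between cytosol and nascent droplets, lay between 9.24 and 10.5 FPKM in all 12 libraries. Its mean was 9.90 ± 0.259 FPKM in siNTC, 9.69 ± 0.234 with TVA, and in knockdown cells 9.82 ± 0.177 without and 9.72 ± 0.648 FPKM with TVA (SD, n = 3). Its log2 difference with TVA was −0.03 (SE 0.04) in siNTC cells and −0.02 (SE 0.04) in si*Creb1* cells, and its 4 groups overlapped. The other perilipin genes were near 0. *Plin1*, the coat protein of adipocyte droplets, reached at most 0.0359 FPKM in any library, *Plin4* at most 0.0577 FPKM and *Plin5* at most 0.0766 FPKM.

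**Figure D1:**
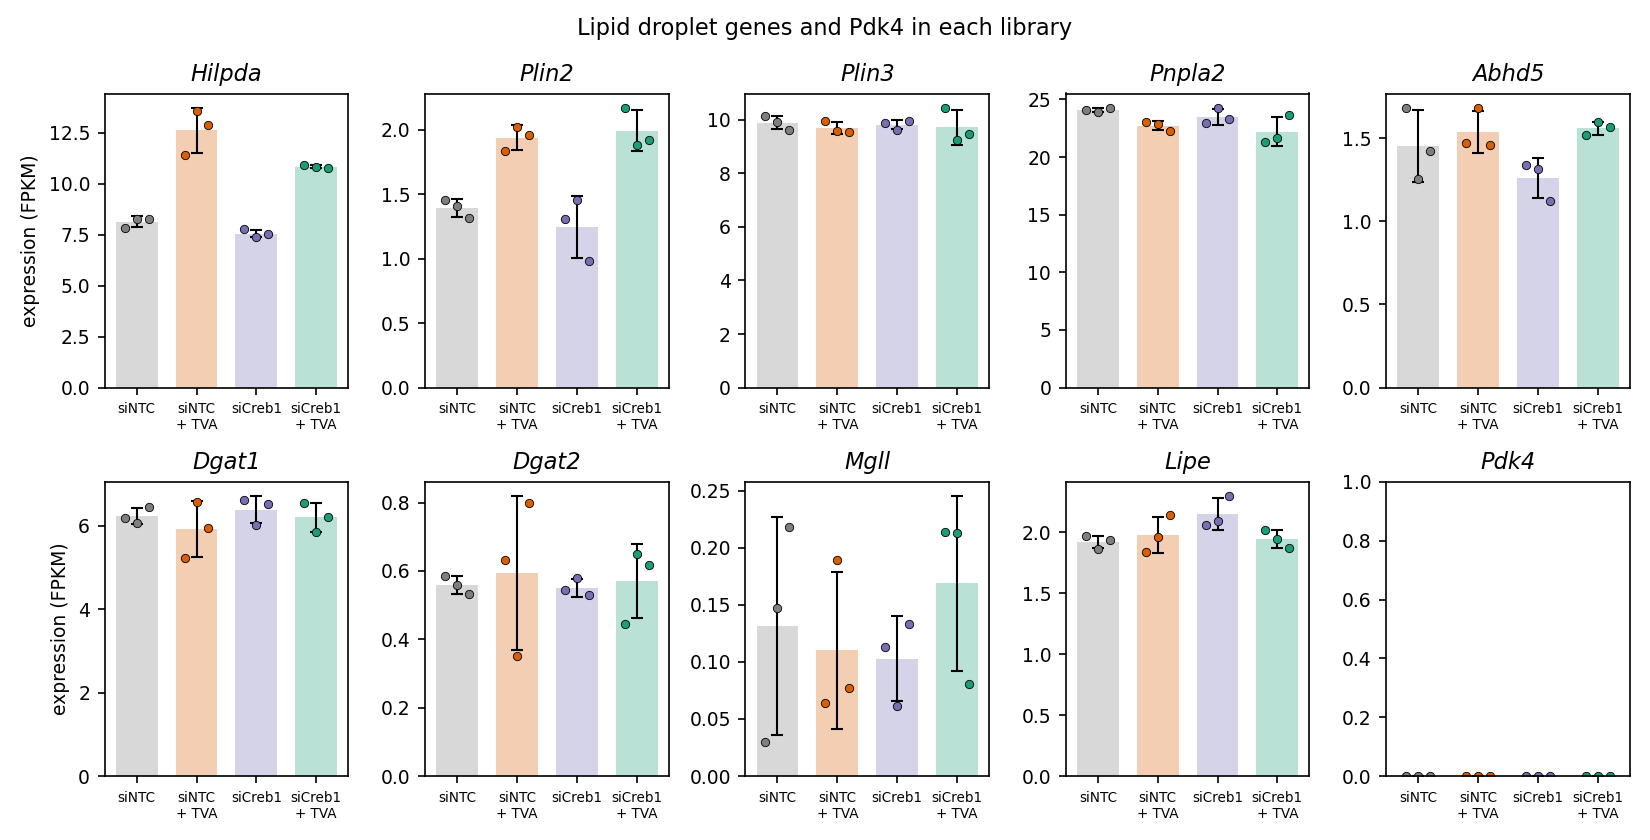
Expression in FPKM of the 10 genes in each of the 12 libraries, grouped by siRNA and TVA, with points for libraries, bars for group means and error bars for SD (n = 3). The TVA libraries of *Hilpda* and *Plin2* all lie above the libraries without TVA, and *Pdk4* is at 0 throughout.

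The sequence before the start site is shown for these 2 genes because their levels differed in the same direction with TVA. Both stretches come from the RefSeq promoter table (GRCm38.p6), 5′ to 3′ on the strand of the gene. Capitals mark the letters of a motif that was searched. The *Hilpda* stretch lies on the plus strand at chr6:29272238-29272487 and ends at the base before the start site. The *Plin2* stretch lies on the minus strand at chr4:86670061-86670309 and ends at the base before the first start site annotated in GENCODE.
Hilpda: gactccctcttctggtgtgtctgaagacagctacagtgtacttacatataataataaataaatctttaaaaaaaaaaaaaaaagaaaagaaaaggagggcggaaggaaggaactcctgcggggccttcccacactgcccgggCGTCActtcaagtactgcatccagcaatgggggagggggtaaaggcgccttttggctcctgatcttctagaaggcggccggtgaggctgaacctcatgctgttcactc
Plin2: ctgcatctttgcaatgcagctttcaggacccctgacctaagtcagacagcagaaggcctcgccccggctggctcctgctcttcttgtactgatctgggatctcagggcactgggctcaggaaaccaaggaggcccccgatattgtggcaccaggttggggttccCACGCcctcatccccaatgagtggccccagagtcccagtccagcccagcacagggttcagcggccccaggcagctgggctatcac

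The motifs were the full cAMP response element TGACGTCA, its core TGACG, the letters ACGTG and GCGTG of hypoxia response elements, and the PPAR direct repeat (AGGTCA repeated after 1 base), each on both strands. The core is part of the full element, TGACG and ACGTG share letters where they overlap, and CACGTG holds ACGTG on both strands. The *Hilpda* stretch holds the core TGACG on the opposite strand, from 108 to 104 bases before the start. The *Plin2* stretch holds GCGTG on the opposite strand, from 85 to 81 bases before the start. Of all 32851 windows of 250 bases in the table, 17.8% held TGACG, 28.2% GCGTG, 16.6% ACGTG, 1.55% TGACGTCA and 0.0335% the direct repeat. The table matched 8 of the 10 genes, with 11 windows among them, and neither TGACGTCA nor the direct repeat was in any of the 11. A second start site of *Hilpda* lies at 29272626, and its window of 250 bases held TGACG 2 times, ACGTG 1 time and GCGTG 2 times. The windows overlap, and 1 of these TGACG matches is the site marked in capitals above. These matches describe letters and were not tested for binding or function.

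*Pnpla2* encodes ATGL, which removes the first fatty acid from triglycerides. It was the most highly expressed of the 10 genes, with 24.1, 23.9 and 24.2 FPKM in siNTC libraries and 23.0, 22.8 and 22.3 FPKM with TVA. In si*Creb1* libraries it was 22.9, 24.3 and 23.3 FPKM, and 21.3, 21.7 and 23.6 FPKM with TVA. The siNTC + TVA libraries lay below the siNTC libraries, whereas the si*Creb1* groups overlapped. The log2 difference with TVA was −0.08 (SE 0.04) in both.

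*Abhd5* encodes the coactivator of ATGL. It stood at 1.68, 1.25 and 1.43 FPKM in siNTC and 1.47, 1.69 and 1.46 FPKM in siNTC + TVA libraries. Knockdown libraries had 1.34, 1.31 and 1.12 FPKM without and 1.52, 1.60 and 1.57 FPKM with TVA. Its log2 difference with TVA was 0.05 (SE 0.08) in siNTC cells, where the groups overlapped, and 0.18 (SE 0.08) in si*Creb1* cells, where they did not. The difference of these differences was 0.13 (SE 0.12). An antisense gene shares 950 bases with *Abhd5* and averaged 0.0683 FPKM, and whether reads were counted by strand was not given in the sources used here.

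*Lipe* encodes hormone-sensitive lipase, which acts on diglycerides. It stood at 1.97, 1.87 and 1.93 FPKM in siNTC and 1.84, 1.96 and 2.14 FPKM in siNTC + TVA libraries. Knockdown libraries had 2.06, 2.09 and 2.30 FPKM without and 2.02, 1.94 and 1.87 FPKM with TVA. Its log2 difference with TVA was 0.03 (SE 0.06) in siNTC cells, where the groups overlapped. It was −0.10 (SE 0.06) in si*Creb1* cells, where all TVA libraries lay lower. The difference of these differences was −0.13 (SE 0.09). Without TVA, si*Creb1* libraries lay above siNTC libraries, with a log2 difference of 0.11 (SE 0.06). Groups of 3 libraries can lie apart without any effect, and the share of all tested genes that do so is not given here. Nothing is therefore read from the separation of groups for *Lipe*, or for *Pnpla2* and *Abhd5* above. The whole of *Lipe* lies within an antisense gene that averaged 0.117 FPKM.

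*Mgll* encodes monoglyceride lipase, which releases the last fatty acid. It lay between 0.0296 and 0.218 FPKM, on 3 to 27 reads per library, and its 4 groups overlapped. Its values therefore do not separate the groups.

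*Dgat1* and *Dgat2* encode the enzymes that add the last fatty acid to triglycerides. *Dgat1* lay between 5.22 and 6.62 FPKM, and its 4 groups overlapped. Its mean was 6.24 ± 0.185 FPKM in siNTC, 5.91 ± 0.673 with TVA, and in knockdown cells 6.39 ± 0.324 without and 6.20 ± 0.350 FPKM with TVA (SD, n = 3). The log2 difference of *Dgat1* with TVA was −0.07 (SE 0.07) in siNTC cells and −0.04 (SE 0.07) in si*Creb1* cells. *Dgat2* was lower than *Dgat1* in every library, with 0.351 to 0.797 FPKM on 18 to 50 reads, and its 4 groups overlapped too. Neither gene thus separated TVA from control libraries.

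**Figure D2:**
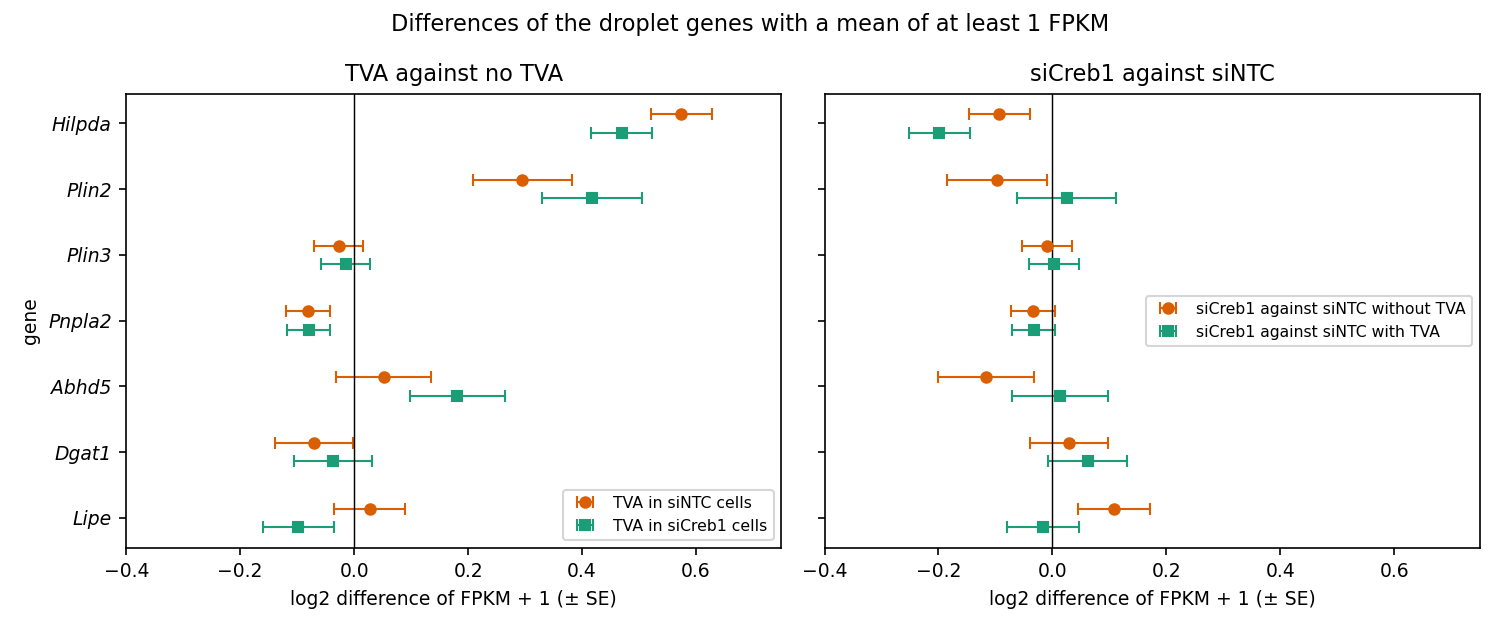
Differences on the log2(FPKM + 1) scale with SE for the 7 genes with a mean of at least 1 FPKM, for TVA against no TVA (left) and si*Creb1* against siNTC (right). *Hilpda* lies at 0.57 and 0.47 and *Plin2* at 0.30 and 0.42 with TVA, whereas *Plin3* and *Dgat1* lie near 0.

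*Pdk4* encodes a kinase that inhibits pyruvate dehydrogenase and is a well-known PPAR target in muscle and liver. It was listed at 0 in all 12 libraries. A level of 3 reads, taken as the limit that a count of 0 allows, corresponds to between 0.0341 and 0.0514 FPKM for *Pdk4*, so no fold change was given. The related kinases were expressed. *Pdk1* averaged between 60.5 and 66.1 FPKM in the 4 groups, *Pdk2* between 4.31 and 5.04 FPKM and *Pdk3* between 10.5 and 12.1 FPKM.

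Over all tested genes, limma with Benjamini-Hochberg adjustment over the 11550 genes and a threshold of 0.05 called 519 genes (4.49%) higher and 333 (2.88%) lower with TVA in siNTC cells. With TPM in place of FPKM these were 402 and 154. Among si*Creb1* cells 14 genes (0.121%) were higher and 48 (0.416%) lower with TVA, or 8 and 29 with TPM. Of the 7 tested genes of the set, 1 was called higher in each comparison, and that gene was *Hilpda* both times. *Hilpda* was among the 8 genes (0.0693%) that were called higher with TVA in both siNTC and si*Creb1* cells, beside 27 genes (0.234%) called lower in both. As the set was chosen with these values in view, nothing is read from its counts.

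With si*Creb1* against siNTC without TVA, 753 genes (6.52%) were called higher and 833 (7.21%) lower, or 908 and 297 with TPM. With TVA the counts were 536 (4.64%) higher and 636 (5.51%) lower, or 620 and 120 with TPM. Without TVA limma called 0 of the 7 tested genes of the set, with 0 at an unadjusted p under 0.05 and 0 by limma-voom. With TVA it called 1 lower, *Hilpda*, and limma-voom called 0. That call was also absent with TPM, with all genes above 0, with a replicate block and in a fit of only the libraries compared. The interaction, which tests whether the TVA effect differed between si*Creb1* and siNTC cells, called 53 genes (0.459%) higher and 206 (1.78%) lower, or 19 and 133 with TPM. None of the 7 tested genes was among these, with 0 at an unadjusted p under 0.05 and 0 by limma-voom. Here too the set was chosen with these values in view, so nothing is read from these counts. With 3 libraries a group, the absence of a call does not show that the TVA effects were equal.

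Other droplet genes were taken from 3 lists written from common knowledge, on coat and assembly, on triglyceride and sterol ester synthesis, and on lipolysis. The 3 lists hold 61 genes outside the set, of which 38 were tested. These lists and those below were chosen with earlier results of these data known. Their counts and p-values therefore only describe these libraries. With TVA in siNTC cells 1 of the 38 rose and 3 fell, with a median log2 fold change of −0.03 beside −0.01 over all tested genes. *Acsl5*, an acyl-CoA synthetase of mitochondria and endoplasmic reticulum, rose by a log2 fold change of 0.13 (SE 0.03, adjusted p = 0.0278 from limma), a call lost under 8 of 19 alternative settings. *Acsl3*, the acyl-CoA synthetase found on nascent droplets, fell from 7.19 ± 0.536 to 5.42 ± 0.141 FPKM (SD, n = 3), with a log2 fold change of −0.35 (SE 0.07, adjusted p = 0.0154 from limma). Its call was lost without siNTC replicate 1 (adjusted p = 0.0541 from limma) and without siNTC + TVA replicate 2 (adjusted p = 0.0576 from limma). *Aup1*, a droplet protein of protein quality control, fell by 0.12 on the log2 scale (adjusted p = 0.0158 from limma). Its call was lost without siNTC + TVA replicate 1 (adjusted p = 0.0544 from limma) or 2 (adjusted p = 0.0522 from limma), with TPM and in a fit of only the libraries compared. *Pnpla7*, a lysophospholipase related to ATGL, fell by 0.20 on the log2 scale (adjusted p = 0.0150 from limma), lost under 5 of 19 settings.

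In si*Creb1* cells 0 of the 38 rose and 2 fell with TVA, with 7 at an unadjusted p under 0.05, and limma-voom also called 2. *Acsl3* fell from 7.45 ± 0.857 to 5.32 ± 0.248 FPKM (SD, n = 3), with a log2 fold change of −0.41 (SE 0.07, adjusted p = 0.0353 from limma). *Nsdhl*, a sterol synthesis enzyme that also sits on droplets, fell by 0.34 on the log2 scale (SE 0.06, adjusted p = 0.0408 from limma). These calls were lost under 13 and 11 of 19 alternative settings, with adjusted p up to 0.173 from limma for both. *Acsl3* was thus called lower with TVA in both siRNA groups, opposite in direction to the *Hilpda* and *Plin2* differences.

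With si*Creb1* against siNTC without TVA, 1 of the 38 droplet list genes rose and 2 fell. *Soat2*, a sterol O-acyltransferase that makes cholesterol esters for storage, was 7.92 ± 0.803 FPKM in siNTC cells and 10.4 ± 0.120 FPKM in si*Creb1* cells (SD, n = 3), with a log2 fold change of 0.36 (SE 0.08, adjusted p = 0.0196 from limma, lost under 6 of 19 settings). *Hsd17b11*, a short-chain dehydrogenase recruited to droplets, fell from 10.0 ± 0.641 to 7.95 ± 0.139 FPKM (SD, n = 3), with a log2 fold change of −0.30 (SE 0.05, adjusted p = 0.00563 from limma) that kept its call in all 19 alternative settings. *Aup1* fell by 0.12 on the log2 scale (adjusted p = 0.0119 from limma), lost with TPM and in a fit of only the libraries compared. With TVA, 2 rose and 2 fell. *Soat2* was higher by a log2 fold change of 0.32 (adjusted p = 0.0413 from limma, lost under 12 of 19 settings) and *Pnpla6*, another lysophospholipase, by 0.18 (adjusted p = 0.0345 from limma, lost under 8). *Rab18*, a droplet GTPase, fell by 0.18 on the log2 scale (adjusted p = 0.0282 from limma, lost under 8), and *Acsl5* by 0.16 (adjusted p = 0.00996 from limma, lost with TPM).

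In the interaction 1 of the 38 was called higher and 1 lower. The siNTC effect of TVA, subtracted from the si*Creb1* effect, left 0.17 for *Aup1* (SE 0.04, adjusted p = 0.0366 from limma, lost under 13 of 18 settings). It left −0.22 for *Acsl5* (SE 0.04, adjusted p = 0.0301 from limma, lost under 12).

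*G0s2*, the other ATGL inhibitor, averaged 4.69 ± 0.860 FPKM in siNTC and 4.83 ± 0.538 FPKM in siNTC + TVA cells (SD, n = 3). With the knockdown it averaged 6.69 ± 1.10 FPKM, and 5.75 ± 0.809 FPKM when TVA was added (SD, n = 3). It passed the threshold in none of the 5 comparisons with limma. Its nearest was si*Creb1* against siNTC without TVA, with a log2 fold change of 0.44 and an adjusted p of 0.0534 from limma. The inhibitors *Hilpda* and *G0s2* thus did not share a TVA pattern in the values.

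Target genes of PPAR receptors outside the set were followed because *Hilpda*, *Plin2* and *Pdk4* are known PPAR targets. Of 39 such genes 23 were tested, and in siNTC cells 5 rose with TVA and 1 fell, with a median log2 fold change of 0.06 beside −0.01 over all tested genes. *Cpt1a*, which carries long-chain acyl groups into mitochondria, rose from 11.7 ± 0.333 to 34.5 ± 0.901 FPKM (SD, n = 3), with a log2 fold change of 1.48 (SE 0.04, adjusted p = 3.34e-08 from limma). *Slc25a20*, the acylcarnitine carrier, rose from 6.59 ± 0.519 to 9.84 ± 0.735 FPKM (log2 fold change 0.52, adjusted p = 0.00114 from limma). *Acadvl*, an acyl-CoA dehydrogenase for very long chains, rose from 13.6 ± 0.398 to 17.2 ± 0.866 FPKM (log2 fold change 0.32, adjusted p = 0.00365 from limma). These 3 calls held in all 19 alternative settings. *Acadl* rose by 0.20 on the log2 scale (adjusted p = 0.0398 from limma), lost under 11 of 19 settings. *Acaa2*, a thiolase of the last step of mitochondrial oxidation, was also among the genes that rose and is named here after its values were seen.

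Under the knockdown 2 of the 23 rose with TVA and 0 fell. *Cpt1a* rose from 12.2 ± 0.753 to 33.2 ± 0.844 FPKM (SD, n = 3), with a log2 fold change of 1.38 (SE 0.04, adjusted p = 6.85e-08 from limma). *Acadvl* rose from 12.9 ± 0.823 to 18.3 ± 0.759 FPKM (log2 fold change 0.48, adjusted p = 0.00148 from limma). Both calls held in all 19 alternative settings. *Slc25a20* had a log2 fold change of 0.32 there (adjusted p = 0.0937 from limma) and was called by limma-voom. The interaction called 0 of the 23 with limma, with 4 at an unadjusted p under 0.05 and 0 by limma-voom. With si*Creb1* against siNTC, *Hadhb* fell by 0.23 on the log2 scale without TVA (adjusted p = 0.00421 from limma, lost with TPM). With TVA *Acadl* fell by 0.19 (adjusted p = 0.0354 from limma, lost under 9 of 19 settings).

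**Figure D3:**
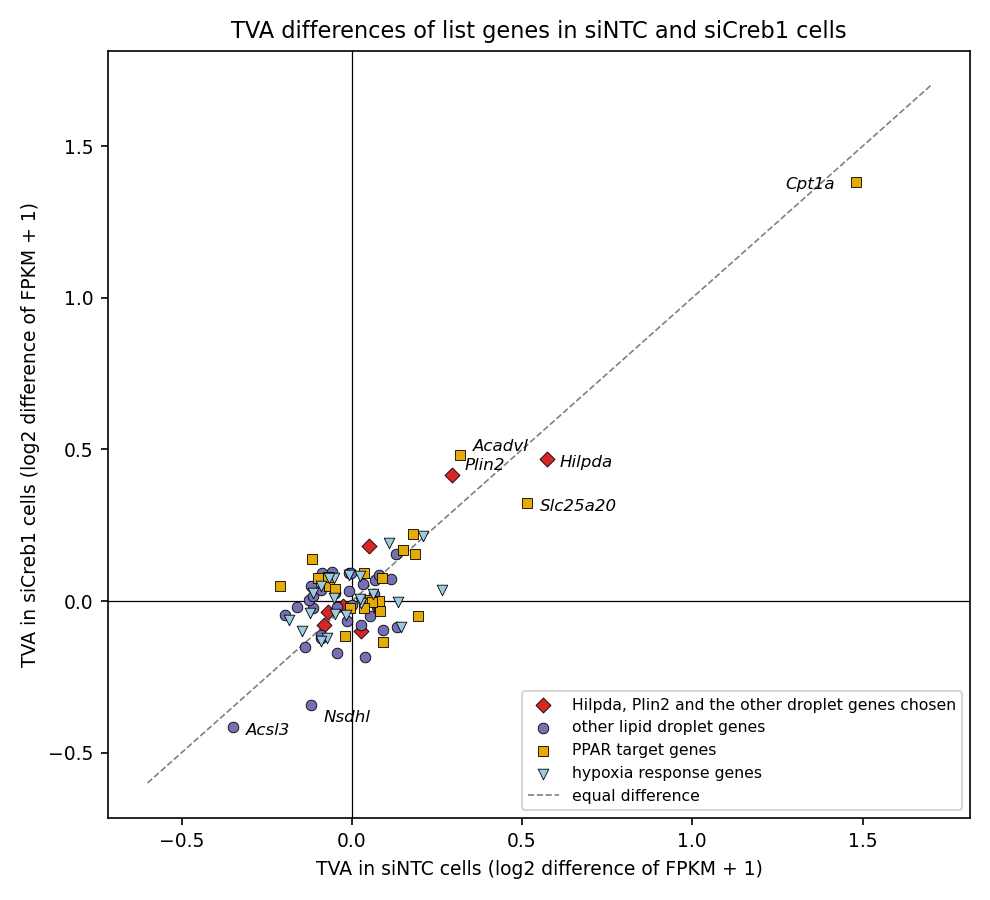
TVA differences on the log2(FPKM + 1) scale in siNTC cells (horizontal) and in si*Creb1* cells (vertical) for the tested genes of the set and of the droplet, PPAR target and hypoxia lists, with a dashed line at equal differences. *Cpt1a* lies at 1.48 and 1.38, *Hilpda*, *Plin2*, *Slc25a20* and *Acadvl* lie above 0 on both axes, and most other genes lie near 0.

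Of the receptors themselves, *Ppard* averaged between 3.29 and 3.48 FPKM in the 4 groups, and its libraries overlapped between all groups. *Ppara* was at most 0.0313 FPKM and *Pparg* at most 0.0980 FPKM in any library. Of 10 receptor and cofactor genes 6 were tested, and with TVA limma called 0 of them in either siRNA group, with 1 at an unadjusted p under 0.05 in siNTC and 0 in si*Creb1* cells and 0 by limma-voom in each. *Ppargc1b* rose by a log2 fold change of 0.26 with si*Creb1* against siNTC in the presence of TVA (adjusted p = 0.0429 from limma), a call lost under 13 of 18 settings.

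Hypoxia response genes were followed because *Hilpda* is also a HIF-1 target. Of 26 genes 22 were tested. With TVA limma called 0 of the 22 in siNTC cells, with 6 at an unadjusted p under 0.05 and 2 by limma-voom, and 0 in si*Creb1* cells, with 3 at an unadjusted p under 0.05 and 0 by limma-voom. *Hif1a* averaged 26.6 ± 1.12 FPKM in siNTC and 24.0 ± 1.10 FPKM in siNTC + TVA cells (SD, n = 3), with a log2 fold change of −0.15 (adjusted p = 0.0990 from limma). The 2 genes that limma-voom called in siNTC cells were *Hif1a* and *Pgk1*. With si*Creb1* against siNTC without TVA, 1 rose and 2 fell. *Bnip3l*, a mitophagy receptor, fell by 0.26 on the log2 scale (SE 0.03, adjusted p = 0.000958 from limma) and kept its call in all 19 alternative settings. *Egln1* fell by 0.13 (adjusted p = 0.0215 from limma, lost under 5 of 19 settings) and *Pgk1* had a log2 fold change of 0.15 (adjusted p = 0.0287 from limma, lost under 7). With TVA, 2 fell, *Bnip3l* by 0.12 (adjusted p = 0.0427 from limma, lost under 13) and *Ldha* by 0.10 (adjusted p = 0.0346 from limma, lost under 8). *Pgk1* and *Ldha* have processed pseudogenes, and how the counting shared reads with these was not given in the sources used here.

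All 13 genes of the list around pyruvate dehydrogenase, the enzyme that PDK4 would inhibit, were tested. With TVA limma called 0 of them in siNTC cells, with 2 at an unadjusted p under 0.05 and 1 by limma-voom, and 0 in si*Creb1* cells, with 1 at an unadjusted p under 0.05 and 0 by limma-voom. With si*Creb1* against siNTC, *Pdk1* fell by 0.12 on the log2 scale without TVA (adjusted p = 0.0231 from limma, lost under 7 of 19 settings). With TVA, 3 fell, namely *Pdk3* by 0.19 (adjusted p = 0.0467 from limma, lost under 14), *Dld* by 0.13 (adjusted p = 0.0154 from limma, lost under 3) and *Pdha1* by 0.11 (adjusted p = 0.0290 from limma, lost under 7). Of the expressed kinase genes, *Pdk1* and *Pdk3* were thus each called lower in 1 si*Creb1* comparison, and *Pdk2* was called in none with limma.

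The tested genes most like *Hilpda* over the 12 libraries were named by Pearson correlation of log2(FPKM + 1), as a description in which the libraries with and without TVA stand apart. They were *Cpt1a* (r = 0.941, n = 12), *Klf11* (0.941), *Rhob* (0.937), *Actg1* (0.923) and *Slc25a20* (0.907). *Klf11*, a zinc-finger factor, averaged 1.29 ± 0.096 FPKM in siNTC and 4.05 ± 0.237 FPKM in siNTC + TVA cells, and 1.55 ± 0.185 and 3.22 ± 0.234 FPKM in the si*Creb1* groups (SD, n = 3). *Rhob*, a small GTPase, averaged 2.34 ± 0.204 and 4.14 ± 0.183 FPKM in the siNTC groups and 1.72 ± 0.227 and 3.67 ± 0.118 FPKM in the si*Creb1* groups (SD, n = 3). For *Plin2* they were *Calr* (r = 0.882, n = 12), *Cpt1a* (0.880), *Hilpda* (0.873), *Hs1bp3* (0.856) and *Rhob* (0.852). These genes were picked for following *Hilpda* or *Plin2*, so their levels with TVA are no separate result. Limma called neither *Calr* nor *Hs1bp3* in either TVA comparison, and the siNTC and siNTC + TVA libraries of *Hs1bp3* overlapped. *Pdk4* has no correlation because it was at 0 throughout.

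**Figure D4:**
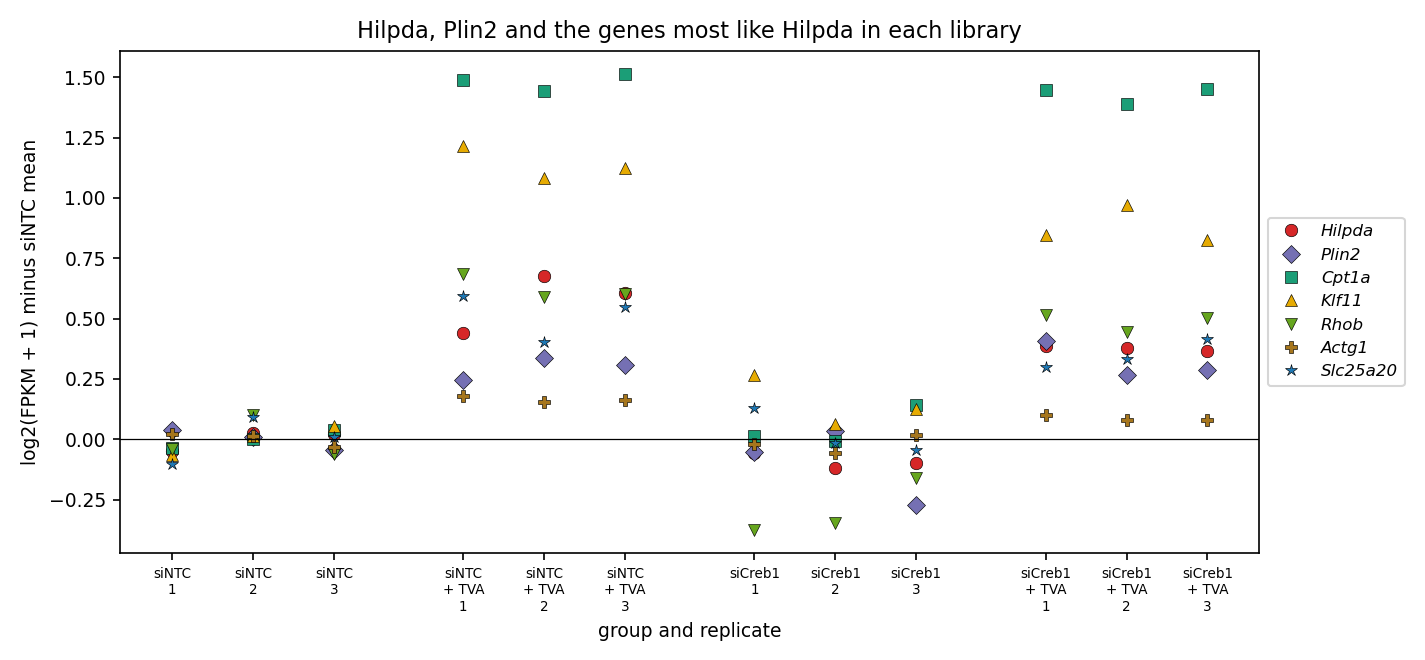
Values of log2(FPKM + 1) minus the siNTC mean in each of the 12 libraries for *Hilpda*, *Plin2* and the 5 genes most correlated with *Hilpda*, ordered by group and replicate number. All 7 genes are higher in the TVA libraries of both siRNAs, *Cpt1a* by most and *Actg1* by least.

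Markers of other cell types were read beside these results. Of 8 macrophage markers 2 were tested, and their sum over the list lay between 8.16 and 12.7 FPKM, highest in the si*Creb1* + TVA libraries with 12.7, 10.7 and 12.2 FPKM. *Lyz2*, the most abundant, rose with si*Creb1* against siNTC in the presence of TVA by a log2 fold change of 0.40 (adjusted p = 0.0478 from limma, lost under 13 of 19 settings). *Cd68*, the other tested marker, was 3.51, 3.37 and 4.36 FPKM in si*Creb1* + TVA and 1.85, 2.20 and 3.09 FPKM in siNTC + TVA libraries. Limma did not call *Cd68* there. *Csf1r* averaged at most 0.180 FPKM in any group, with its highest mean in si*Creb1* + TVA cells. In the TVA comparison of siNTC cells, where *Hilpda* and *Plin2* were higher with TVA, the macrophage sums were 9.71, 8.88 and 9.13 FPKM without and 8.28, 8.24 and 8.16 FPKM with TVA. In the TVA comparison of si*Creb1* cells, where both genes were also higher with TVA, the sums were 8.74, 10.5 and 8.45 FPKM without and higher with TVA, at the values given above. Of 6 B cell markers 3 were tested. *Ighm*, the most abundant at 313 FPKM on average, fell with TVA in siNTC cells by 0.13 on the log2 scale (adjusted p = 0.00915 from limma, lost in a fit of only the libraries compared). *Ighm* fell by 0.22 (adjusted p = 0.000502 from limma) with si*Creb1* without TVA and by 0.11 (adjusted p = 0.0186 from limma, lost under 5) with TVA. All 3 tested B cell markers were lower with si*Creb1* without TVA. With TVA 2 were higher and 1 lower, with a median log2 fold change of 0.19, and only *Ighm* was called. In the TVA comparison of si*Creb1* cells 2 were also higher and 1 lower, with 0 called. The part of other cells in the droplet gene differences was not tested.

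Of the 10 T cell markers 1 rose and 0 fell with TVA in siNTC cells. With si*Creb1* against siNTC, 2 rose and 5 fell without TVA, and 1 rose and 3 fell with TVA. *Gzmb*, a cytotoxic granule protease, rose with TVA in siNTC cells by a log2 fold change of 0.31 (adjusted p = 0.000247 from limma) and with si*Creb1* without TVA by 0.43 (adjusted p = 5.14e-05 from limma). *Cd8b1* fell with si*Creb1* by 0.16 without TVA (adjusted p = 0.000665 from limma) and by 0.14 with TVA (adjusted p = 0.00224 from limma), both lost with TPM. *Cd3d*, a CD3 chain, fell by 0.15 without TVA (adjusted p = 0.00615 from limma, lost under 2 of 19 settings) and by 0.13 with TVA (adjusted p = 0.0158 from limma, lost under 4). Without TVA *Cd3g*, another CD3 chain, fell by 0.13 (adjusted p = 0.00992 from limma, lost with TPM) and *Lck*, a kinase of T cell receptor signalling, by 0.10 (adjusted p = 0.0160 from limma, lost under 3 of 19 settings). *Trac*, the constant part of the receptor alpha chain, fell by 0.08 with TVA (adjusted p = 0.0311 from limma, lost under 9 of 19 settings). *Cd8a* rose with si*Creb1* in the presence of TVA, as it did without TVA, and the log2 fold change with TVA was 0.09 (adjusted p = 0.00680 from limma). *Ctla4*, the most abundant of the CD4 T cell markers, fell by 0.27 with si*Creb1* without TVA (adjusted p = 0.00138 from limma). The 4 NK cell markers, led by *Eomes* at 29.6 FPKM on average, held 0 called genes with limma in either TVA comparison, with 1 at an unadjusted p under 0.05 and 0 by limma-voom in each. Of the 5 erythroid markers *Hba-a2* and *Hbb-bs* were listed at 0 in all libraries, and the most abundant, *Alas2*, averaged 0.140 FPKM.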

How the data were processed

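The values were FPKM that the authors had computed from RNA-seq reads and deposited for 54532 genes in 12 libraries, on GRCm38/mm10 per the processing notes. The aligner and the counting program were not given in the sources used here. The genes of the set and the lists were chosen with earlier results of these data known.

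Genes with a mean of at least 1 FPKM (11550) were fitted as log2(FPKM + 1) with limma 3.58.1 in R 4.3.3, with one coefficient per group and a variance trend. P-values were adjusted by Benjamini-Hochberg over all tested genes, with a threshold of 0.05. Fold changes on this scale understate those of low genes. Reads were recovered from FPKM and gene length, and in the library with the lowest share 99.99% of values, after rounding, lay within 0.02 of a whole read. Of each list and comparison, called genes whose libraries did not overlap between groups are named, at most the 5 with the largest change, and any called in the interaction. Related perilipins, kinases and receptors, *G0s2*, *Hif1a*, the most abundant markers, markers at 0 and the 5 genes most correlated with *Hilpda* or *Plin2* are named in any case. One PPAR target that the rule names is not reported here. Other settings tried were every gene above 0 (29700), a pseudocount of 0.1, a mean of at least 5 FPKM (7480), TPM, a replicate block, limma-voom on recovered reads, only the libraries compared, and leaving out each library. Lists were 3 droplet lists, PPAR targets, receptors and cofactors, pyruvate dehydrogenase, hypoxia response and cell type markers.

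Promoters came from the RefSeq promoter table, and the positions of 10 of 10 genes were the same in GENCODE vM21. Python 3.11.15, pandas 2.3.3 and matplotlib 3.10.9 read the tables and drew the figures.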

Additional observations from a re-analysis of the deposited data

Results flagged for a closer look

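The interaction called 3 named genes of the lists in the fit reported, and only the *Gzmb* call held in all 18 other settings. For *Aup1* the si*Creb1* effect less the siNTC effect was 0.17 (adjusted p = 0.0366 from limma, lost under 13 of 18 settings). For *Acsl5* it was −0.22 (adjusted p = 0.0301 from limma, lost under 12). For *Gzmb* it was −0.38 (adjusted p = 0.00254 from limma), with means of 72.4 and 89.9 FPKM without and with TVA in siNTC cells and 97.9 and 92.8 FPKM in si*Creb1* cells. The causes were not tested.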

How the results depend on the processing

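For the genes of the set, 625 of 643 values of the differences under the alternatives lay within 1 residual SD of the gene of the value reported, and 18 did not. Many of these values could not move. Settings that change only the genes tested, the spread or the libraries outside a comparison leave its difference as it was. The share is therefore no measure of stability. For named genes, 739 of 1003 fold changes kept their call, 264 lost it and 0 reversed. Called genes with TVA in siNTC cells were 852, against 563 with all genes above 0, 556 with TPM, 368 with only the libraries compared and 558 to 767 with a library left out. In si*Creb1* cells they were 62, against 37 with TPM, 161 by limma-voom, 39 with only the libraries compared and 30 to 67. For si*Creb1* without TVA they were 1586, against 992 with all genes above 0, 817 with only the libraries compared and 1020 to 1532. With TVA they were 1172, against 683 with all genes above 0, 740 with TPM and 599 to 1245. For the interaction they were 259, against 152 with TPM, 449 by limma-voom and 168 to 237.

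Called genes of the set with TVA in siNTC cells were 1, and 1 to 2 with a library left out. In si*Creb1* cells they were 1, and 2 by limma-voom. For si*Creb1* with TVA they were 1, and 0 with all genes above 0, TPM, limma-voom or only the libraries compared, and 0 to 1 with a library left out. Called genes of the 3 droplet lists with TVA in siNTC cells were 4, against 1 with TPM, 1 with only the libraries compared and 0 to 5. In si*Creb1* cells they were 2, against 0 with all genes above 0, 1 with TPM, 1 with only the libraries compared and 0 to 2. For si*Creb1* without TVA they were 3, against 6 by limma-voom and 2 to 4. With TVA they were 4, against 1 with all genes above 0, 2 with TPM, 2 with only the libraries compared and 1 to 4. For the interaction they were 2, against 1 with all genes above 0, 0 with TPM, 1 by limma-voom and 0 to 2.

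Same-numbered libraries correlated between −0.059 and 0.06 across groups, and 3 of 12 libraries correlated best with their own number. A replicate block called 34 genes with TVA in si*Creb1* cells. For si*Creb1* with TVA it called 0 genes of the set and 2 of the droplet lists, and it called 0 of the droplet lists with TVA in si*Creb1* cells and 0 in the interaction.

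Each group held 3 libraries, and no protein, droplet or lipid measurement was in the tables. Read floors cover counting error only, and replicate pairs differed by 3.54 to 5.29 times the counting variance. The causes of these differences between settings were not tested.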
